A study of Mus musculus with 24 samples.

Results

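Open chromatin was described at 34 genes of DNA end joining and break repair in mouse B-cell progenitors, out of 21631 protein-coding genes on chromosomes 1 to 19 and X. The genes were taken from a list of names that was chosen with earlier results of these data known. Every peak in the gene body and in 10 kb on both sides was assigned to the gene. All 34 genes held at least 1 peak in each of the 24 libraries. Their windows held 238 of 159336 regions, a region being the joined stretch of overlapping peaks of all libraries. A peak within 1 kb of either end of a gene was called a gene-end peak and is given apart from the others.

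The cells came from bone marrow of Mki67-/- or WT mice, and 3 stages were sorted from each genotype: pre-pro-B, then pro-B, then small pre-B cells. The product of Mki67, Ki-67, marks the nuclei of cycling cells, and the study's title links it to rearrangement of antigen receptor genes. Each of the 6 groups had 4 libraries. Age and sex of the mice, the kind of Mki67 mutation and whether the libraries of a group came from separate mice are not given in the sources used here, so p-values cover only how much libraries vary, which may be technical. ATAC-seq reads out DNA that a transposase can reach. In bulk cells, fewer cells with an open site and less opening per cell cannot be told apart.

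V(D)J recombination cuts the antigen receptor genes of B-cell progenitors with the RAG recombinase, and the broken ends are joined by non-homologous end joining. Ku binds the ends and recruits DNA-PKcs and Artemis, which opens the hairpin ends, and the XRCC4 and ligase IV complex seals them. Terminal transferase, the product of Dntt, adds untemplated nucleotides before sealing, mostly in pro-B cells. ATM, the MRE11 complex, MDC1 and 53BP1 signal the break and protect its ends, while the Fanconi and BRCA proteins serve repair during DNA replication.

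The libraries held between 54387 and 88946 merged peaks, and their background coverage, recovered from the deposited values as a stand-in for depth, lay between 1.86 and 5.3. In peaks or coverage 4 libraries stood apart from their groups: the first small pre-B library of each genotype, the fourth Mki67-/- pre-pro-B library and the second WT pre-pro-B library. Mki67 itself had at least 1 gene-end peak in all 24 libraries, and without the allele this does not check the genotype labels. Early B-lineage marker genes (10 genes) had summed counts of 23 to 27 in Mki67-/- and 24 to 29 in WT pre-pro-B libraries among the 40000 strongest peaks. The sums were 64 to 69 in Mki67-/- and 66 to 69 in WT pro-B libraries, and 57 to 63 in Mki67-/- and 50 to 58 in WT small pre-B libraries. Markers of T, NK and innate lymphoid cells (9 genes) went the other way, with 27 to 33 in Mki67-/- and 25 to 31 in WT pre-pro-B libraries, all 9 genes having a peak. They had 12 to 15 and 14 to 16 in Mki67-/- and WT pro-B libraries and 7 to 12 and 8 to 9 in Mki67-/- and WT small pre-B libraries, with Cd3e, Cd8a and Ncr1 at 0 in both stages. Myeloid markers (8 genes) had 19 to 24 and 21 to 22 in Mki67-/- and WT pre-pro-B libraries. They had 12 to 14 and 11 to 14 in Mki67-/- and WT pro-B libraries and 15 to 18 in small pre-B libraries of either genotype, with Lyz2 at 0 in 3 of the 4 later groups. These lists move with every comparison between stages given here, small pre-B against pro-B included, and their share in those results was not tested.

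The starts of the genes come first, since 29 of the 32 RefSeq promoters matched to 28 of the 34 genes carried a peak in all 24 libraries, against 46.7% of 21020 promoters of protein-coding genes. A promoter here is the stretch from 250 bases before to 50 after an annotated start in RefSeq on GRCm38.p6, which has the coordinates of mm10. Members' promoters had a median of 21.5 CpG dinucleotides, against 13 over all promoters. Of all promoters with at least 20 CpG, 79.8% had a peak in 24 libraries, and of those with at most 2 CpG, 2.70% did. The exceptions among the members were Dntt, with a peak over the promoter in 5 libraries, Ung in 4, and the upstream promoter of Mad2l2 in 19. The sequences of 5 promoters are shown. They are those of Dntt and Ung, where this stretch rarely carried a peak, and of Hmgb2, the member with the strongest gene-end peak. The others are those of the ligase partner Xrcc4 and of Fanci, which gave the smallest p between genotypes. Ung nonetheless had a gene-end peak in all 24 libraries, mostly downstream of this stretch. Capitals mark matches on either strand to the GC box GGGCGG, the CCAAT box CCAAT, the Ets core CCGGAAG, the E-boxes CAGCTG and CAGGTG, the TATA box TATAAA, the NRF1 core TGCGCA and the E2F cores GCGGGAA and GCGCGAA, where the GC box, the Ets core and the E2F cores can overlap.
Dntt (chr19:41029025-41029324, plus strand): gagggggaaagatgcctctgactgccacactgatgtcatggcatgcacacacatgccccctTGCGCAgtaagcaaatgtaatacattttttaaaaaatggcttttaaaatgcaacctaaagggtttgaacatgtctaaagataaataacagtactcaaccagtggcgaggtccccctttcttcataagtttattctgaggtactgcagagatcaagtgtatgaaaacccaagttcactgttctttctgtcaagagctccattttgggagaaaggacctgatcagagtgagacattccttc
Ung (chr5:114130185-114130484, plus strand): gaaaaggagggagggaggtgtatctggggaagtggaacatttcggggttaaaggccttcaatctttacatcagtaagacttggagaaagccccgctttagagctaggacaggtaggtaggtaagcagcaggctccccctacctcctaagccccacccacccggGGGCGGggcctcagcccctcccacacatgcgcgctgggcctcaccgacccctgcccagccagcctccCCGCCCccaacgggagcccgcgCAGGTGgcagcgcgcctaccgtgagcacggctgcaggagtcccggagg
Hmgb2 (chr8:57511593-57511892, plus strand): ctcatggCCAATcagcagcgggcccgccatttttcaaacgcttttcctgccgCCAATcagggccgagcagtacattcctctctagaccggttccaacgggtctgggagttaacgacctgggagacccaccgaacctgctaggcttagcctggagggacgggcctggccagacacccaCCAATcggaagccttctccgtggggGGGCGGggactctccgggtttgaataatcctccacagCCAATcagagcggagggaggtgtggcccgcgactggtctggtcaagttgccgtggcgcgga
Xrcc4 (chr13:90089559-90089858, minus strand): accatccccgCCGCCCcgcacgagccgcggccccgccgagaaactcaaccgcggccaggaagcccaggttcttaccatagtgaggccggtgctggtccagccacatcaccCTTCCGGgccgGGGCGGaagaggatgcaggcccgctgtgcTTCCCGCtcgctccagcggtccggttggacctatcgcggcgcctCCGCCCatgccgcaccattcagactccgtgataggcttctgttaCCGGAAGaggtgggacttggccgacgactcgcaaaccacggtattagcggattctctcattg
Fanci (chr7:79392088-79392387, plus strand): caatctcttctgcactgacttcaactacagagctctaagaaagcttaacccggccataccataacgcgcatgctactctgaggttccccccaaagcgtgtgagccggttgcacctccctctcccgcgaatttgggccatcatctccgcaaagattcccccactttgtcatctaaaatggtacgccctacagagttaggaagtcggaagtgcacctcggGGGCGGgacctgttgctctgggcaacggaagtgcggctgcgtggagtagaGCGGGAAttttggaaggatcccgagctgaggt
The Dntt promoter held 2 CpG and 42.3% G and C, a CpG number reached or undercut by 17.6% of all promoters, and only an NRF1 core match. The Hmgb2 promoter held 4 CCAAT boxes and 1 GC box, and that of Xrcc4 held 3 GC boxes, 2 Ets cores and 1 E2F core.

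Over all 32 members' promoters, the GC box was present in 22 (68.8%), against 46.6% of all promoters. The E2F cores were present in 12 (37.5%), against 7.88%, the Ets core in 9 (28.1%), against 11.7%, and the NRF1 core in 8 (25%), against 9.72%. The CCAAT box (43.8% and 38.5%), the E-boxes (34.4% and 32.2%) and the TATA box (12.5% and 12.7%) differed less between members' and all promoters. The GC box and the E2F, Ets and NRF1 cores each contain a CpG, while the CCAAT box, the E-boxes and the TATA box contain none. Members' promoters had more CpG, with a median of 21.5 against 13 over all promoters. Promoters of like CpG number were not compared, so the part of CpG number in these shares was not tested. These are matches of letters and not bound sites.

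Gene-end regions were more constant than the rest. Of 52 gene-end regions, 35 (67.3%) had a peak in all 24 libraries, and of 186 other regions 26 (13.98%) did, against 16.8% of all regions of the series. That 16.8% pools gene-end and other regions, and the share among gene-end regions of all genes was not counted. Between 31 and 32 of the 34 genes had a gene-end peak in any 1 library. Paxx had none in any library, because its RefSeq body runs more than 1 kb past the start that carried its constant peak. Xrcc6, Trp53bp1 and Mad2l2 likewise had a constant start peak inside the body that is counted among the other peaks. Of the 52 gene-end regions, 22, at 16 members, lay within 1 kb of the end of another gene, such as Tmem167 beside Xrcc4, Mcm4 beside Prkdc and Npat beside Atm, so those peaks cannot be given to 1 gene.

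Gene-end peaks also differed widely in rank within a library's list, where rank 1 is the peak of highest -log10 q. Hmgb2, which encodes a DNA-bending protein that helps RAG bind and cut, had a median rank of 2122.5 in pre-pro-B libraries, 25 in pro-B libraries and 36.5 in small pre-B libraries. Mdc1 and Brca1 had median ranks of 221 and 492 over all 24 libraries. Nhej1, which encodes the XLF factor that bridges ends, had a median rank of 145 in pre-pro-B libraries, 4014.5 in pro-B libraries and 3908 in small pre-B libraries. The median ranks of Rif1, Fancd2, Rnf168, Xrcc6 and Lig4 were furthest down the list, between 15698.5 and 21403.5. Ranks are a description, since q-values are each library's own.

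**Figure D1:**
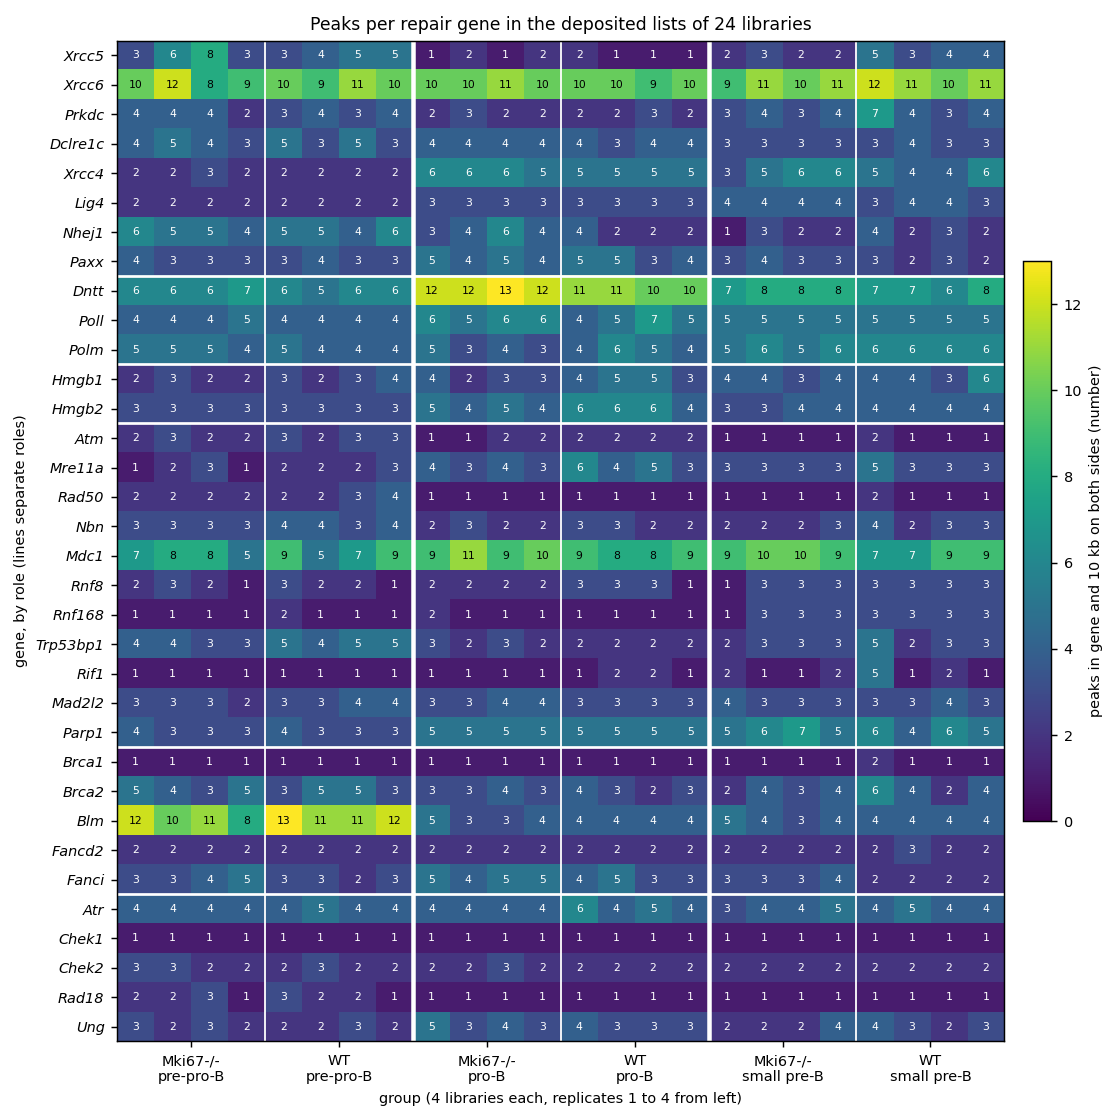
Number of peaks of the deposited lists in each gene and 10 kb on both sides (colour and digits), for 34 repair genes (down, grouped by role) in 24 libraries (across, 4 for each group, Mki67-/- left of WT within a stage). Dntt held 10 to 13 peaks in pro-B libraries and 5 to 8 elsewhere, and Blm 8 to 13 in pre-pro-B libraries and 3 to 5 later.

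The genotype comparison addresses whether these genes are more or less accessible without Ki-67. No member passed in any of the 3 measures: all peaks, gene-end peaks or other peaks. In the deposited lists, the 34 genes together held 104 to 125 peaks in Mki67-/- and 115 to 126 in WT pre-pro-B libraries. They held 119 to 131 in Mki67-/- and 111 to 129 in WT pro-B libraries, and 105 to 126 in Mki67-/- and 116 to 141 in WT small pre-B libraries. The genotypes overlapped at each stage.

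Across stages, the stratified exact permutation test called 0 of 17598 genes (0%) at an adjusted p of at most 0.05, members included. The smallest p that 12 against 12 libraries allow is 5.83e-06. Over this many genes, even a gene at that p could pass only together with others of similarly small p. At an unadjusted p under 0.05, 2 members were higher in Mki67-/- libraries (1.15% of all genes were) and 2 were lower (3.93% of all genes were). The median difference was -0.0833 peaks per library over the members and -0.0833 over all genes tested. Within a stage, 4 libraries against 4 cannot give a p below 0.0286, so no gene could pass there.

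Fanci and Dntt were the 2 members with an unadjusted p under 0.05 and more peaks in Mki67-/- libraries, and neither passed. Fanci encodes the partner of FANCD2 in the clamp that the Fanconi pathway loads at DNA crosslinks. It lies on chromosome 7, 56.2 Mb from Mki67. It had 3, 3, 4 and 5 peaks in Mki67-/- and 3, 3, 2 and 3 in WT pre-pro-B libraries. It had 5, 4, 5 and 5 in Mki67-/- and 4, 5, 3 and 3 in WT pro-B libraries, and 3, 3, 3 and 4 in Mki67-/- and 2, 2, 2 and 2 in WT small pre-B libraries. The groups were apart in small pre-B cells only (exact permutation p = 0.0286, n = 4 each, adjusted p = 1). The difference across stages was 1.08 peaks per library (3.92 ± 0.900 in Mki67-/- and 2.83 ± 0.937 in WT, SD over stages, n = 12 each, permutation p = 0.00131, adjusted p = 0.586). Among peaks away from the gene ends alone, it was 0.917 (n = 12 each, permutation p = 0.000933, adjusted p = 0.540). With all lists reduced to the 40000 strongest peaks the difference was 0.25, and with 20000 it was 0.

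A single region within the body of Fanci separated the genotypes in small pre-B cells. It ran from 79419918 to 79420471 on chromosome 7, with its middle 27856 bp downstream of the start. No pre-pro-B library of either genotype had a peak there, 4 Mki67-/- and 4 WT pro-B libraries did, and 4 Mki67-/- and 0 WT small pre-B libraries did. Among the 40000 strongest peaks of a library it kept a peak in 1 of the 4 Mki67-/- small pre-B libraries, so 3 of these 4 peaks were weaker ones. Background coverage averaged 2.58 in Mki67-/- and 3.12 in WT small pre-B libraries, with ranges that overlapped (1.86 to 3.06 and 2.40 to 3.70), and the part of depth in this region was not tested.

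Dntt lies at 41029275 to 41059525 on chromosome 19. It had 6, 6, 6 and 7 peaks in Mki67-/- and 6, 5, 6 and 6 in WT pre-pro-B libraries. It had 12, 12, 13 and 12 in Mki67-/- and 11, 11, 10 and 10 in WT pro-B libraries, where the groups did not overlap (exact permutation p = 0.0286, n = 4 each, adjusted p = 1). It had 7, 8, 8 and 8 in Mki67-/- and 7, 7, 6 and 8 in WT small pre-B libraries. Across stages the difference was 1.0 peak per library (8.75 ± 2.70 in Mki67-/- and 7.75 ± 2.18 in WT, n = 12 each, permutation p = 0.00239, adjusted p = 0.637). This direction turned when only the 40000 strongest peaks of a library were counted, to -0.0833. In those lists, Dntt had 5, 6, 6 and 7 peaks in Mki67-/- and 7 in each of the 4 WT pro-B libraries. Coverage was 2.08 to 3.73 in Mki67-/- and 2.85 to 3.34 in WT pro-B libraries.

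The additional Dntt peaks of pro-B cells were weak ones, including one at the annotated start, at the end of the promoter sequence shown above. The region from 41029273 to 41029497 was open in 4 of 4 Mki67-/- and 1 of 4 WT pro-B libraries, and no library of the other stages had a peak there. Its median rank was 47186, outside the 40000 strongest peaks in all 5 libraries. A region 9902 bp upstream of the start showed the same numbers, 4 Mki67-/- and 1 WT in pro-B and none elsewhere. A region 6905 bp downstream had a peak in all 8 pro-B libraries and in no other, and a region past the far end of the gene had one in 4 Mki67-/- and 3 WT pro-B libraries only. The region 1434 bp upstream had a peak in 4 and 4 pro-B libraries and in 3 Mki67-/- and 1 WT small pre-B libraries. Other sites were open at all stages. Those with middles 6894 and 2377 bp upstream and 2034, 10010 and 24349 bp downstream of the start had a peak in all 24 libraries, and one 9145 bp downstream in 23. The last was among the 40000 strongest in no pre-pro-B library, 7 pro-B libraries and 8 small pre-B libraries.

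**Figure D2:**
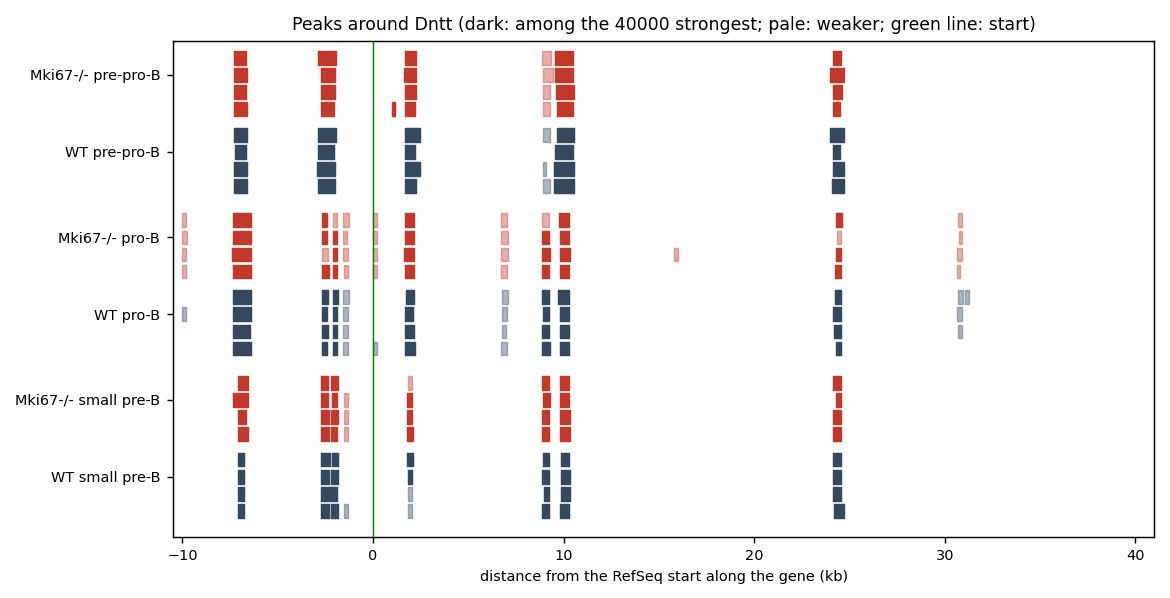
Peaks around Dntt in each of 24 libraries (lines of bars, grouped by stage, Mki67-/- above WT), by distance from the annotated start in kb; dark bars are among the 40000 strongest peaks of a library and pale bars are weaker. Weak peaks at the start appear in 4 Mki67-/- and 1 WT pro-B libraries, while sites on both sides of the start recur across stages.

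Nbn and Hmgb1 were the 2 members with an unadjusted p under 0.05 and fewer peaks in Mki67-/- libraries, and neither passed. Nbn encodes the third subunit of the MRE11 complex, and had 3, 3, 3 and 3 peaks in Mki67-/- and 4, 4, 3 and 4 in WT pre-pro-B libraries, 2, 3, 2 and 2 in Mki67-/- and 3, 3, 2 and 2 in WT pro-B libraries, and 2, 2, 2 and 3 in Mki67-/- and 4, 2, 3 and 3 in WT small pre-B libraries. The genotypes overlapped at each stage (difference -0.583, n = 12 each, permutation p = 0.0348, adjusted p = 0.913), and among the 40000 strongest peaks the difference was 0. Hmgb1, like Hmgb2 a RAG cofactor, had 2, 3, 2 and 2 in Mki67-/- and 3, 2, 3 and 4 in WT pre-pro-B libraries, 4, 2, 3 and 3 in Mki67-/- and 4, 5, 5 and 3 in WT pro-B libraries, and 4, 4, 3 and 4 in Mki67-/- and 4, 4, 3 and 6 in WT small pre-B libraries. Its difference was -0.833 (n = 12 each, permutation p = 0.0406, adjusted p = 0.944), and it turned to 0.0833 among the 20000 strongest peaks. Its groups overlapped at each stage as well.

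Whether the genotype difference itself changed between stages was tested for each pair of stages. No gene passed, and 0 members passed. With 4 against 4 libraries in each of 2 stages, no p below 0.000408 is possible. After adjustment over all genes, a gene could pass only if many others had p-values as small, so the test had little power. At an unadjusted p under 0.05 stood Trp53bp1 between pre-pro-B and pro-B (permutation p = 0.0184) and Xrcc5 and Nhej1 between pro-B and small pre-B (permutation p = 0.0388 and 0.0498), each with an adjusted p of 1. Of all genes, 2.28% stood at that limit for the first pair of stages and 2.48% for the second. For the remaining pair, pre-pro-B with small pre-B, 0 members and 1.97% of all genes did. Xrcc5, which encodes Ku80, had 2, 3, 2 and 2 peaks in Mki67-/- and 5, 3, 4 and 4 in WT small pre-B libraries, and 1, 2, 1 and 2 in Mki67-/- and 2, 1, 1 and 1 in WT pro-B libraries. Its groups met at 3 peaks in small pre-B cells.

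Taken region by region, 0 of 93268 regions (0%) passed by genotype across stages, and 3 of the 119 members' regions tested had an unadjusted p under 0.05, near the 2.12% of all regions that did. With the same smallest possible p of 5.83e-06, no region could pass alone in this test. Within each stage, regions that all 4 libraries of one genotype shared and the other genotype lacked were also counted. In pre-pro-B cells 73 members' regions varied, with none higher and none lower in Mki67-/- libraries (0.0741% and 0.439% of all regions that varied). In pro-B cells they had 0 higher and 1 lower (0.67% and 0.718% of all) among 62 members' regions that varied. In small pre-B cells they had 2 higher and 0 lower (0.825% and 0.598% of all) among 64 members' regions that varied.

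The 1 region lower in Mki67-/- pro-B cells lay in the body of Xrcc4, from 89889029 to 89889438 on chromosome 13 and 200375 bp from its start. It had peaks in 4 Mki67-/- and 4 WT pre-pro-B libraries, 0 Mki67-/- and 4 WT pro-B libraries and in no small pre-B library. The 2 regions higher in Mki67-/- small pre-B cells were that of Fanci and one 3864 bp upstream of Mdc1, from 35837552 to 35837716 on chromosome 17, which also lay within 1 kb of an end of Tubb5. The Mdc1 region had peaks in 2 Mki67-/- and 0 WT pro-B libraries and in 4 Mki67-/- and 0 WT small pre-B libraries. In the libraries that had them, the regions of Xrcc4, Fanci and Mdc1 had median ranks of 62536.5, 22708 and 42547. The Fanci value includes 8 pro-B libraries, and in small pre-B cells 3 of its 4 peaks lay outside the 40000 strongest.

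Of the members' regions open in all 8 pro-B libraries, 10 were open in some but not all small pre-B libraries. Of these 10, 7 had more Mki67-/- than WT small pre-B libraries with a peak and 2 had fewer. Over all regions chosen in the same way, 60.6% of 12644 had more and 28.6% fewer, so the members' numbers were near those of the series. Among them were the Fanci region, a region 5360 bp upstream of Parp1 (4 Mki67-/- and 1 WT small pre-B libraries) and a region 79604 bp inside Xrcc4 (3 and 0). Parp1 encodes the poly(ADP-ribose) polymerase that marks strand breaks.

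**Figure D3:**
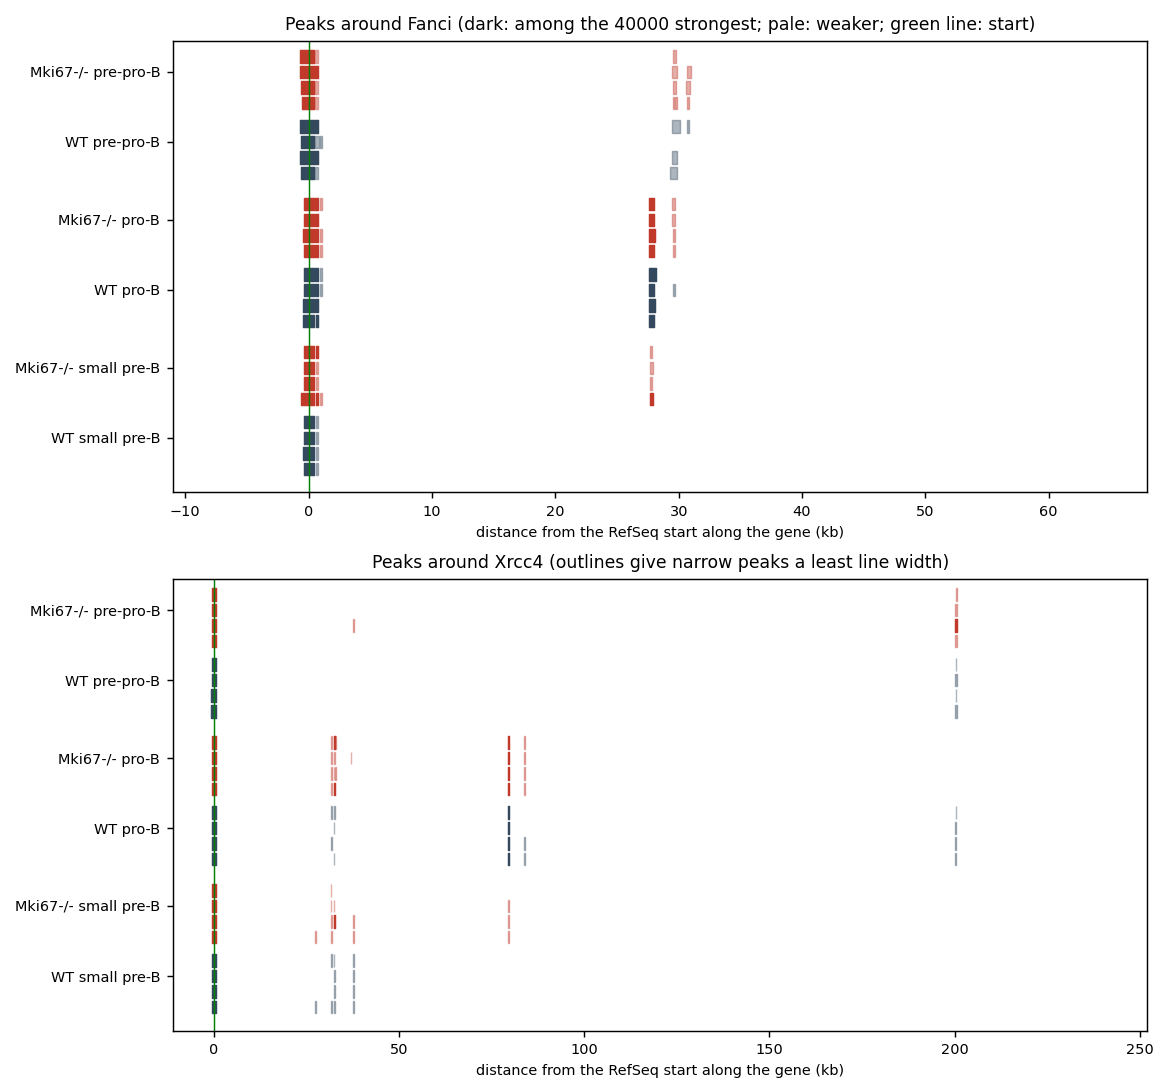
Peaks around Fanci (top) and Xrcc4 (bottom) in each of 24 libraries (lines of bars, grouped by stage, Mki67-/- above WT), by distance from the annotated start in kb; dark bars are among the 40000 strongest peaks of a library and pale bars are weaker. The site at 27.9 kb in Fanci is present in 8 pro-B and 4 Mki67-/- small pre-B libraries, and the site at 79.6 kb in Xrcc4 in 8 pro-B and 3 Mki67-/- small pre-B libraries.

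The second set of comparisons asks how these genes differed between stages of B-cell development, with the 40000 strongest peaks of each library so that all lists had 1 length. In pro-B against pre-pro-B, 8 of the 34 genes gained peaks and 5 lost peaks (24.8% and 21.1% of all genes did), so 8 and 5 of 34 are close to or below the share of all genes. The gains were at Mdc1, Mre11a, Fanci, Xrcc6, Dntt, Xrcc4, Lig4 and Poll, and the losses at Blm, Nhej1, Xrcc5, Atm and Hmgb1. By role, 3 of 8 core end-joining genes gained and 2 lost, 2 of 3 polymerase genes gained, 2 of 11 signalling genes gained and 1 lost, 1 of 5 homologous recombination and crosslink repair genes gained and 1 lost, 1 of 2 RAG cofactor genes lost, and none of the 5 replication-stress genes passed.

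Numbers of peaks and covered DNA went different ways, and peaks of pre-pro-B libraries were wider, whose part in this was not tested. Their median width in a library's list was 627 to 826 bp, against 442 to 539 bp in pro-B and 396 to 479 bp in small pre-B libraries. By the length of DNA covered by the same peaks, 5 members were higher and 24 lower in pro-B than in pre-pro-B libraries (11.9% and 66.7% of all genes). In this measure Xrcc6, Dntt and Poll were lower in pro-B cells instead of higher, with differences in the mean of -572 bp, -690 bp and -730 bp. Between small pre-B and pre-pro-B it was 2 higher and 23 lower (8.75% and 73.4% of all genes), and between small pre-B and pro-B 6 higher and 7 lower (13.4% and 30.2% of all genes).

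Mre11a and Mdc1 had the clearest gains among the signalling genes. Mre11a encodes the nuclease of the MRE11 complex, and had 1 peak in each of the 8 pre-pro-B libraries and 3 in each of the 8 pro-B libraries. In small pre-B cells it had 3 in each Mki67-/- library and 4, 3, 3 and 3 in WT libraries. Its difference of pro-B over pre-pro-B was 2.0 peaks (n = 8 each, permutation p = 0.000408, the smallest that 8 against 8 allow, adjusted p = 0.00164). Both added peaks lay past the far end of the gene, 55086 and 55695 bp from its start on chromosome 9, with a peak in 16 of 16 pro-B and small pre-B libraries and in no pre-pro-B library, also in the deposited lists.

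Mdc1, whose product binds phosphorylated histone H2AX at breaks, had 4, 3, 3 and 4 peaks in Mki67-/- and 4, 4, 3 and 3 in WT pre-pro-B libraries. It had 7, 7, 6 and 7 in Mki67-/- and 6, 7, 6 and 6 in WT pro-B libraries, and 6, 7, 7 and 7 in Mki67-/- and 5, 6, 5 and 5 in WT small pre-B libraries. The gain in pro-B was 3.0 peaks (n = 8 each, permutation p = 0.000408, adjusted p = 0.00164), and no library of pro-B met one of pre-pro-B. A region 6899 bp inside the gene and one 24669 bp from its start, near ends of Nrm and Ppp1r18, had one of these peaks in all 8 pro-B and no pre-pro-B library. In the deposited lists the Mdc1 gain was 1.88 and did not pass.

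In the ligation complex, both partners had more peaks in pro-B than in pre-pro-B libraries. Lig4, at 9970020 to 9977680 on chromosome 8, had 2 peaks in all 8 pre-pro-B libraries and 3 in all 8 pro-B libraries, and in small pre-B cells 3 in each Mki67-/- library and 3, 4, 4 and 3 in WT libraries (pro-B over pre-pro-B 1.0, n = 8 each, permutation p = 0.000408, adjusted p = 0.00164). The added region, from 9975241 to 9975660, lay 2230 bp downstream of the upstream start and had a peak in all 16 pro-B and small pre-B libraries and in no pre-pro-B library of the deposited lists. Xrcc4 had 1, 1, 2 and 1 peaks in Mki67-/- and 1 in each WT pre-pro-B library, 3, 2, 2 and 3 in Mki67-/- and 2, 3, 2 and 2 in WT pro-B libraries, and 2, 2, 3 and 2 in Mki67-/- and 2 in each WT small pre-B library. Its difference of pro-B over pre-pro-B was 1.25 (n = 8 each, permutation p = 0.00122, adjusted p = 0.00436). The pro-B peak lay 79604 bp inside the gene, in 8 of 8 pro-B libraries and no other among the 40000 strongest. Peaks of Xrcc4 away from the gene ends averaged 0.125 per library in both pre-pro-B and small pre-B cells. In small pre-B cells the second peak lay instead within the start region, which held 2 peaks in all 8 small pre-B libraries and in 1 pro-B library, so that other peaks were lower by 1.12 and gene-end peaks higher by 0.875 against pro-B (n = 8 each, permutation p = 0.00122 and 0.00204, adjusted p = 0.00949 and 0.0368).

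The Ku genes differed in direction. Xrcc6, which encodes Ku70, had 5, 5, 5 and 4 peaks in Mki67-/- and 5, 5, 5 and 4 in WT pre-pro-B libraries, 5, 6, 5 and 6 in Mki67-/- and 7, 7, 6 and 7 in WT pro-B libraries, and 6, 8, 7 and 8 in Mki67-/- and 7, 9, 7 and 9 in WT small pre-B libraries. Small pre-B exceeded pre-pro-B by 2.88 peaks (n = 8 each, permutation p = 0.000408, adjusted p = 0.00179), without overlap. In the deposited lists the difference was 0.75 and did not pass, and by length covered it was 49.2 bp. The window of Xrcc6 also holds ends of Desi1 and Snu13. Xrcc5 had 2 in each Mki67-/- and 3, 2, 2 and 3 in WT pre-pro-B libraries, 1 in all 8 pro-B libraries, and 2, 1, 1 and 1 in Mki67-/- and 1 in each WT small pre-B library. Pro-B was lower by -1.25 (n = 8 each, permutation p = 0.000408, adjusted p = 0.00164). The lost region lay 52309 bp inside Xrcc5, and in the deposited lists it was open again in all 8 small pre-B libraries.

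Of the other core genes, Nhej1 had 3, 2, 3 and 3 peaks in Mki67-/- and 3, 2, 2 and 3 in WT pre-pro-B libraries, 2, 1, 1 and 1 in Mki67-/- and 1 in each WT pro-B library, and 1, 2, 2 and 2 in Mki67-/- and 1, 2, 1 and 2 in WT small pre-B libraries. It fell by 1.5 peaks in pro-B against pre-pro-B (n = 8 each, permutation p = 0.000816, adjusted p = 0.00308), the groups meeting at 2 peaks. Its lost region lay 146074 bp inside the gene, and in the deposited lists it was still open in 4 Mki67-/- and 1 WT pro-B libraries. Dclre1c, which encodes Artemis, had 3 peaks in all 24 libraries, and its differences were 0. Prkdc, which encodes DNA-PKcs, had 2, 3, 2 and 2 in Mki67-/- and 2, 2, 3 and 2 in WT pre-pro-B libraries, 2, 1, 1 and 2 in Mki67-/- and 2 in each WT pro-B library, and 2, 2, 3 and 2 in Mki67-/- and 4, 3, 3 and 3 in WT small pre-B libraries. Small pre-B exceeded pro-B by 1.0 (n = 8 each, permutation p = 0.00408, adjusted p = 0.0231), but the groups met at 2 peaks. A Prkdc region from 15725075 to 15725324 on chromosome 16 had a deposited peak in 3 Mki67-/- and 4 WT small pre-B libraries and in no library of the other stages. Paxx, an accessory factor that binds Ku, had 3 peaks in all 16 pre-pro-B and pro-B libraries and 2, 3, 2 and 3 in Mki67-/- and 2 in each WT small pre-B library (small pre-B against pro-B -0.75, n = 8 each, permutation p = 0.00612, adjusted p = 0.0302).

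Behind the constant number at Paxx, a region near an end of Abca2, from 25447569 to 25448250 on chromosome 2, was open in all 8 pro-B and all 8 small pre-B libraries and in no pre-pro-B library. A region from 25450865 to 25451647 was open in all 8 pre-pro-B libraries and, among the 40000 strongest, in none later. Numbers of peaks per gene thus hid an exchange of sites there.

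**Figure D4:**
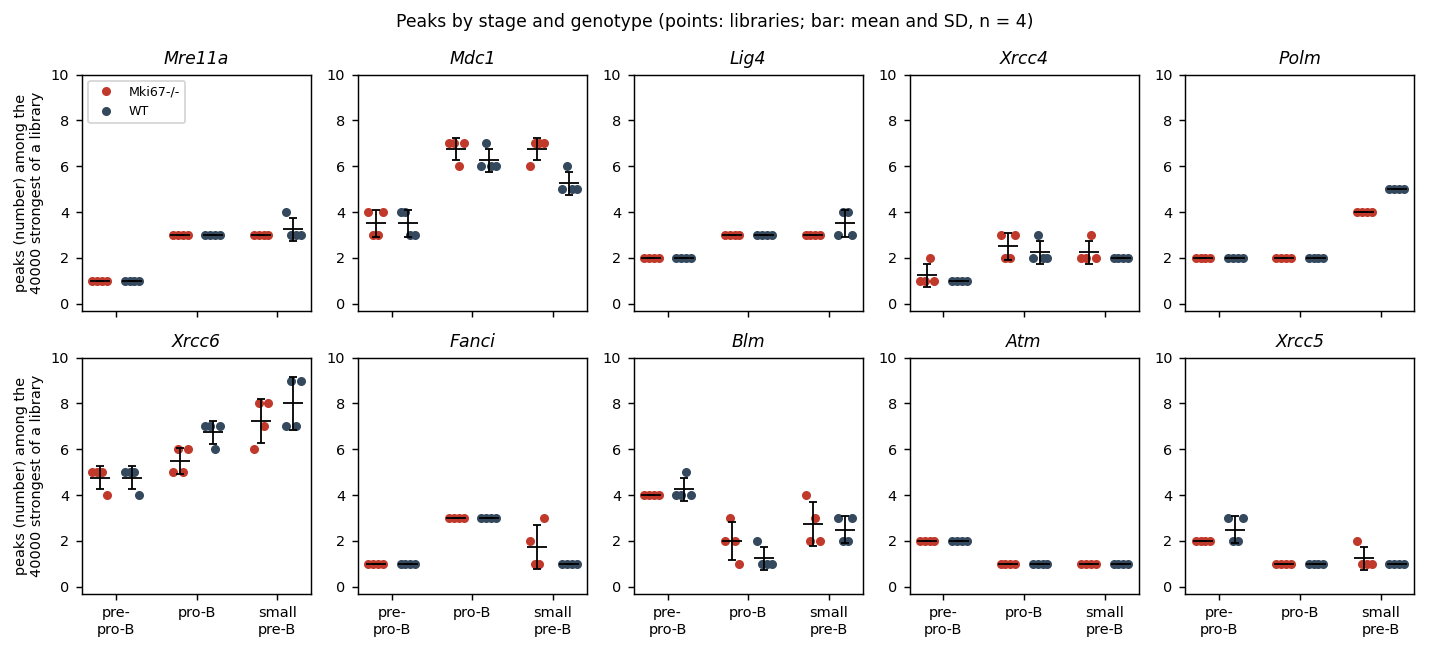
Number of peaks among the 40000 strongest of a library (vertical axis) for 10 members, by stage (horizontal axis), with Mki67-/- libraries left of WT ones; points are libraries and bars give the mean and SD (n = 4). Mre11a stands at 1 in pre-pro-B and at 3 in pro-B libraries, Atm at 2 and 1, and Polm at 2 in both with 4 or 5 in small pre-B libraries.

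Losses after pre-pro-B were largest at Blm and sharpest at Atm. Blm, which encodes the Bloom helicase that dissolves recombination intermediates, had 4 in each Mki67-/- and 4, 4, 5 and 4 in WT pre-pro-B libraries, 2, 3, 2 and 1 in Mki67-/- and 2, 1, 1 and 1 in WT pro-B libraries, and 4, 2, 3 and 2 in Mki67-/- and 3, 2, 2 and 3 in WT small pre-B libraries. Pro-B was lower than pre-pro-B by -2.5 peaks (n = 8 each, permutation p = 0.000408, adjusted p = 0.00164), and among the 20000 strongest peaks by -0.125, which did not pass. In the deposited lists Blm had 8 to 12 peaks in Mki67-/- and 11 to 13 in WT pre-pro-B libraries and 3 to 5 in all later ones. The regions 33836 bp inside the gene and 90291 bp from its start, had one of the 40000 strongest peaks in all 8 pre-pro-B libraries and in none later. Atm, which encodes the kinase that responds to breaks, had 2 peaks in all 8 pre-pro-B libraries and 1 in all 16 later ones (pro-B against pre-pro-B -1.0, n = 8 each, permutation p = 0.000408, adjusted p = 0.00164). The lost peak lay at the far end of the gene, from 53435483 to 53436704 on chromosome 9, and no pro-B or small pre-B library had a peak there even in the deposited lists.

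Fanci and Hmgb1 were the other members that passed by gene-end peaks. Counting gene ends alone, 1 member was higher and 2 lower in pro-B than in pre-pro-B (10.8% and 6.18% of all genes), namely Fanci, Atm and Hmgb1. Fanci had 1 peak in all 8 pre-pro-B libraries, 3 in all 8 pro-B libraries and 2, 1, 1 and 3 in Mki67-/- and 1 in each WT small pre-B library. The pro-B gain of 2.0 (n = 8 each, permutation p = 0.000408, adjusted p = 0.00164) was made up of the region inside the gene and of a second peak within the start region. Small pre-B was lower than pro-B by -1.62 (n = 8 each, permutation p = 0.00204, adjusted p = 0.0129). Hmgb1 had 2 in all 8 pre-pro-B libraries, 1 in each Mki67-/- and 1, 2, 2 and 1 in WT pro-B libraries, and 1, 1, 2 and 1 in Mki67-/- and 2, 3, 2 and 2 in WT small pre-B libraries. Its pro-B difference of -0.75 (n = 8 each, permutation p = 0.00612, adjusted p = 0.0154) turned to 1.0 in the deposited lists. Away from gene ends, 9 of 24 members tested were higher and 3 lower in pro-B (26% and 25% of all genes tested). By gene-end peaks 1 of 30 was higher and 2 lower (10.8% and 6.18% of all genes tested).

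The step to small pre-B moved fewer members. Against pro-B, 4 were higher (Polm, Prkdc, Nbn and Poll) and 2 lower (Fanci and Paxx), where 11.4% and 11.9% of all genes were. Of 30 members tested by gene-end peaks, 2 were higher, Polm and Xrcc4, and 0 lower (2.35% and 3.29% of all genes). Of 22 tested by other peaks, 5 were higher and 3 lower (14.2% and 14.8% of all genes). Without the 2 small pre-B libraries that stood apart, Paxx and Poll did not pass, 1 member was lower in all and 1 passed by gene-end peaks.

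Polm had the largest gain among the members at this step, by the 40000 strongest peaks. It encodes polymerase mu, which fills gaps at broken ends and is known to act when light-chain genes are joined in mice. It had 2 peaks in all 16 pre-pro-B and pro-B libraries, and 4 in each Mki67-/- and 5 in each WT small pre-B library. The stage difference was 2.5 (n = 8 each, permutation p = 0.000408, adjusted p = 0.00467). In the deposited lists Polm had 5, 3, 4 and 3 peaks in Mki67-/- and 4, 6, 5 and 4 in WT pro-B libraries. It had 5, 6, 5 and 6 there in Mki67-/- and 6 in each WT small pre-B library, so the stages overlapped. New regions lay 3262 bp inside the gene, from 5834573 to 5834936 on chromosome 11, and past its far end, from 5826712 to 5827136. Both had a peak in all 8 small pre-B libraries and none of the 40000 strongest in any earlier one. The peak that separated the genotypes here lay 8221 bp inside the gene and ranked among the 40000 strongest in 0 Mki67-/- and 4 WT small pre-B libraries, but in the deposited lists it was present in 3 Mki67-/- and 4 WT libraries. Poll, which encodes the related polymerase lambda, had 3, 3, 4 and 3 in Mki67-/- and 3, 4, 3 and 3 in WT pre-pro-B libraries, 4 in all 8 pro-B libraries, and 5, 4, 5 and 4 in Mki67-/- and 5 in each WT small pre-B library. Against pro-B its gain was 0.75 (n = 8 each, permutation p = 0.00612, adjusted p = 0.0302), and in the deposited lists it turned to -0.5. Nbn had 2 peaks in all 8 small pre-B libraries, against 1, 1, 1 and 1 in Mki67-/- and 1, 1, 2 and 1 in WT pro-B libraries (0.875, n = 8 each, permutation p = 0.00204, adjusted p = 0.0129). The added region, close to an end of Osgin2, had a deposited peak in all 24 libraries and only passed into the 40000 strongest.

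Dntt had the same mean in small pre-B as in pro-B libraries among the 40000 strongest peaks, 6.5 ± 0.756 in both (n = 8 each), against 5.12 ± 0.354 in pre-pro-B (n = 8). In the deposited lists pro-B exceeded pre-pro-B by 5.38 peaks (n = 8 each, permutation p = 0.000408, adjusted p = 0.00207). There it held 7 to 8 peaks in Mki67-/- and 6 to 8 in WT small pre-B libraries, fewer than the 10 to 13 of pro-B libraries, and the groups of these 2 stages did not overlap.

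Over both steps, small pre-B against pre-pro-B, 10 members were higher and 6 lower (24.2% and 21% of all genes). The higher ones were Xrcc6, Polm, Mdc1, Mre11a, Poll, Parp1, Dntt, Lig4, Hmgb2 and Xrcc4, and the lower ones Blm, Xrcc5, Nhej1, Atm, Paxx and Atr. This comparison shares its libraries with both steps. Without the 4 libraries that stood apart, 10 were higher and 3 lower, and Nhej1, Atr and Paxx did not pass. Of 30 members tested by gene-end peaks 2 were higher and 1 lower (10.6% and 6.51% of all genes), and of 22 tested by other peaks 9 were higher and 5 lower (25.1% and 24.1% of all genes). All 3 end-joining polymerases were among the higher ones. Parp1 had 3 in all 8 pre-pro-B libraries, 3 in each Mki67-/- and 3, 4, 4 and 4 in WT pro-B libraries, and 4, 5, 5 and 5 in Mki67-/- and 4 in each WT small pre-B library (small pre-B over pre-pro-B 1.38, n = 8 each, permutation p = 0.000408, adjusted p = 0.00179). By length covered, the difference was -198 bp at Parp1, -245 bp at Polm, -474 bp at Poll, -302 bp at Xrcc4, -372 bp at Hmgb2 and -1070 bp at Dntt. Atr, the kinase of replication stress, had a difference of -0.75 (n = 8 each, permutation p = 0.0102, adjusted p = 0.0245), and Hmgb2 one of 1.25 (n = 8 each, permutation p = 0.00367, adjusted p = 0.0106).

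Several genes had the same number throughout. Rad50, which encodes the tether of the MRE11 complex, had 1 peak among the 40000 strongest in all 24 libraries, as did Chek1, Rad18 and Rnf8. Rad50 had 2 deposited peaks in each Mki67-/- and 2, 2, 3 and 4 in WT pre-pro-B libraries, 1 in all 8 pro-B libraries, and 1 in each Mki67-/- and 2, 1, 1 and 1 in WT small pre-B libraries. Fancd2, the partner of Fanci, had 2 of the 40000 strongest in all 24 libraries. Ung, the uracil glycosylase of class switching, had 1 gene-end peak in all 24 libraries among the 40000 strongest, but in 20 of the deposited lists it lay more than 50 bases downstream of the annotated start. No call was made at Brca1, Brca2, Chek2, Rnf168, Rif1, Trp53bp1 or Mad2l2 in any of the 3 stage comparisons.

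**Figure D5:**
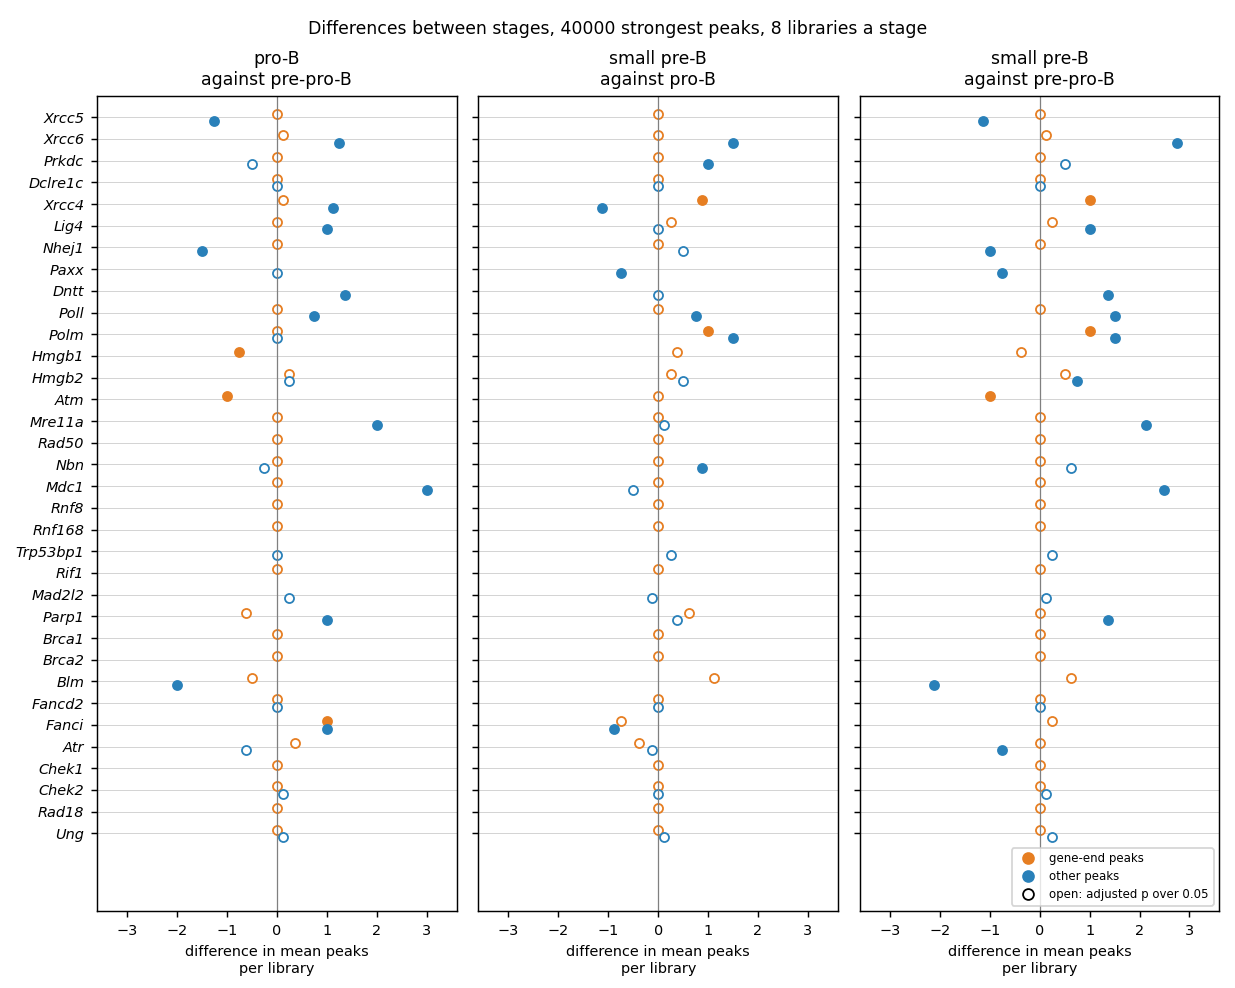
Difference between 2 stages in the mean number of peaks per library (horizontal axis, later minus earlier stage) for 34 members (down), for gene-end peaks (orange) and other peaks (blue) among the 40000 strongest of a library, 8 libraries a stage; filled points have an adjusted p of at most 0.05 in the exact permutation test, and members that could not be tested in a measure have no point. Most filled points are other peaks: 12 of 15 for pro-B against pre-pro-B, 8 of 10 and 14 of 17 in the other panels. Calls over all genes were mostly of other peaks too. For pro-B against pre-pro-B, 3560 were higher and 3421 lower by other peaks, against 1355 and 774 by gene-end peaks. For small pre-B against pro-B these were 1802 and 1874, against 285 and 400. For small pre-B against pre-pro-B they were 3415 and 3269, against 1309 and 803.

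Region by region, 48 members' regions varied between pre-pro-B and pro-B libraries. Of these, 10 had one of the 40000 strongest peaks in all 8 pro-B and no pre-pro-B library, and 7 the reverse. Of all regions that varied, 16.1% and 16.8% did. The 10 lay at Mdc1 and Mre11a (2 each) and at Lig4, Polm, Parp1, Xrcc4, Paxx and Fanci. The 7 lay at Blm (2), Atm, Nhej1, Xrcc5, Paxx and Polm. Of 48 members' regions that varied between pro-B and small pre-B, 4 were gained, at Polm (2), Parp1 and Xrcc6. Only 1 was lost, at Xrcc4 (5.68% and 6.2% of all that varied). In small pre-B against pre-pro-B, 12 were gained and 5 lost (11.5% and 14.6% of all).

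A wider list of 62 other repair genes was set beside the members, and all 62 were tested. In pro-B against pre-pro-B, 15 gained and 8 lost peaks (24.8% and 21.1% of all genes did). In small pre-B against pro-B, 8 gained and 4 lost (11.4% and 11.9% of all genes). In small pre-B against pre-pro-B, 18 gained and 8 lost (24.2% and 21% of all genes). By genotype across stages, 0 of the 62 passed, with 1 higher and 4 lower at an unadjusted p under 0.05 (1.15% and 3.93% of all genes were). Among the larger changes, named after their values were seen, was that at Xrcc1, the scaffold of single-strand break repair, with 6.5 peaks in pro-B and 2 in pre-pro-B libraries in the mean. In the same order, Wrn, a helicase related to Blm, had 1.25 and 3.5, and Brip1, a helicase that binds BRCA1, had 2 and 4. Lig1, the replicative ligase, had 3 and 2, and Polq, the polymerase of microhomology-mediated end joining, had 1.38 and 2.62. In small pre-B against pro-B, Fanca had 3.25 and 1.5, Fancl 3.38 and 2, and Polk, a polymerase that bypasses lesions, 1.38 and 3.75.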

How the data were processed

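ATAC-seq peak lists of 24 libraries were used. Trimmomatic, MACS2, deepTools, DiffBind and DESeq2 are the tools named per the submitters' processing notes, without versions, and mm10 is the build. The deposited lists give per peak a score (10 times the -log10 q), a fold enrichment, a -log10 p-value and a -log10 q-value, all the authors', and no entry lies below a -log10 q of 2. Peaks were called per library, so the values rank peaks within a list only, and no read depth is known. Background coverage was recovered from the fold and p-value of 3000 summits as a stand-in.

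Overlapping entries were merged on chromosomes 1 to 19 and X and counted per gene of RefSeq GRCm38.p6 with 10 kb on both sides. Genes with a peak in at least 4 libraries were tested. Genotypes were compared on the deposited lists and stages on the 40000 strongest peaks, by two-sided exact permutation tests stratified by stage or genotype, with Benjamini-Hochberg adjustment over all genes and a threshold of 0.05. A list is described by its counts and its median difference, with no test of its own. Regions were compared by all-or-none presence and the same test. The test was tested on simulated data. Python 3.11.15, numpy 2.4.6 and numba 0.67.0 were used. Alternatives were other peak cutoffs, length covered, a window of 2 kb, another overlap, libraries left out and a replicate block.

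The members and lists were chosen with earlier results of these data known. Values per library are given for members that passed in any comparison, for those with an unadjusted p under 0.05 by genotype and for 8 end-joining and tether genes fixed by name. RefSeq promoters were matched for 28 of 34 members. H2afx, in the wider list, was matched by a synonym. Counts have no interval because a list gives presence only.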

Additional observations from a re-analysis of the deposited data

Results flagged for a closer look

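A library's gap to its nearest neighbour exceeded Dixon's critical value in 3 of 42 groups of totals over the members and in 60 of 204 groups of single genes. Chance does so in about 1 in 20 groups of continuous values, but small whole numbers with ties, such as 1, 1, 1 and 2, exceed it by 1 peak. Of the 60, the 8 with a gap of at least 2 peaks are given here. Among the totals over all members in the 40000 strongest peaks, 1 Mki67-/- pre-pro-B library had 74 peaks, against 71 in the other 3, and 1 WT pro-B library had 79, against 78. For gene-end peaks alone, 1 Mki67-/- pro-B library had 34, against 35. In the deposited lists, Prkdc had 2 peaks in 1 Mki67-/- pre-pro-B library, against 4. Nhej1 had 4 in 1 WT pro-B library, against 2. Hmgb2 had 4 in 1 WT pro-B library, against 6, and Mre11a 5 in 1 WT small pre-B library, against 3. Rnf8, a ubiquitin ligase that acts at breaks, had 1 in 1 Mki67-/- small pre-B library and 1 in 1 WT pro-B library, against 3 in each case. Rnf168, which acts after Rnf8, had 1 in 1 Mki67-/- small pre-B library, against 3, and Ung had 4 in 1 Mki67-/- small pre-B library, against 2. None of these genes is called by genotype.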

How the results depend on the processing

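By genotype across stages 0 members were called under every alternative run. Fanci stood at 0.25 with the 40000 strongest peaks and at 0 with 20000, and Nbn at 0 in both. Dntt turned to -0.0833 with the 40000 strongest peaks and to -0.25 with 20000, and Hmgb1 to 0.0833 with 20000. Leaving out 1 library at a time gave 0.889 to 1.11 for Dntt (adjusted permutation p from 0.366 to 0.613) and 0.944 to 1.22 for Fanci (0.355 to 0.613). Of 1001 alternative values for single genes, 929 kept direction and call, 56 kept direction only and 16 turned. The 1001 include the runs that left out 1 library at a time, in which every such gene kept direction and call. All 56 and all 16 changes thus came from the remaining alternatives, where the share that changed was larger. The cause was not tested.

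Shares of all genes or regions under the alternatives are not given, here or above, except for length covered. The counts of members under the other alternatives thus show only how their calls moved and do not set members against the series. With the deposited lists in full, 9 members were lower in pro-B than in pre-pro-B, 8 passed by gene-end peaks in small pre-B against pre-pro-B, and regions lost numbered 3 in small pre-B against pro-B and 13 in small pre-B against pre-pro-B. Hmgb1 turned to 1.0 (pro-B against pre-pro-B) and Poll to -0.5 (small pre-B against pro-B). By length covered, 5 were higher and 24 lower in pro-B against pre-pro-B, 7 lower in small pre-B against pro-B, and 2 higher and 23 lower in small pre-B against pre-pro-B. Xrcc6, Dntt and Poll turned to -572, -690 and -730 bp in pro-B against pre-pro-B, and Polm, Parp1, Poll, Xrcc4, Hmgb2 and Dntt to -245, -198, -474, -302, -372 and -1070 bp in small pre-B against pre-pro-B. With 20000 peaks, other peaks passed at 5 members in small pre-B against pro-B and at 8 in small pre-B against pre-pro-B, and Paxx turned to 0.125. With a window of 2 kb, 2 were higher and 1 lower in small pre-B against pro-B, 5 higher and 3 lower in small pre-B against pre-pro-B, and Atr turned to 0.125. With no minimum of libraries, 1 member passed by gene-end peaks in small pre-B against pro-B.

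Without the 3 libraries that stood apart in earlier work, 1 member was lower and 1 passed by gene-end peaks in small pre-B against pro-B. Leaving out WT pre-pro-B replicate 2 as well, an alternative chosen after seeing the data, 3 were lower in small pre-B against pre-pro-B. Regions by genotype with a -log10 q of at least 5 numbered 1 higher and 0 lower in pro-B and 1 higher in small pre-B. With the 40000 strongest peaks they numbered 1 higher and 1 lower in small pre-B, and with an overlap of 0.5 they numbered 1 higher. With that overlap, 2 regions were lost in small pre-B against pro-B and 9 in small pre-B against pre-pro-B. Leaving out 1 library gave 2 to 4 members by gene-end peaks in small pre-B against pro-B (4 without Mki67-/- small pre-B replicate 4) and 1 to 2 regions lost there. By genotype it gave 0 to 2 regions lower in pre-pro-B (2 without WT pre-pro-B replicate 2), 0 to 2 higher in pro-B (2 without WT pro-B replicate 1 or 2) and 1 to 3 lower in pro-B (3 without WT pro-B replicate 4).

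Replicate numbers did not pair the libraries. Deviations from the group means of libraries with the same number correlated at -0.254 to 0.0949 between genotypes and at -0.111 to 0.102 between stages, and in 9 of 36 cases a library correlated best with its own number. With the number as a replicate block, 0 members passed by gene-end peaks in each of the 3 stage comparisons, 0 were higher and 0 lower in small pre-B against pro-B, also by other peaks, and 3 were lower in small pre-B against pre-pro-B. The block allows no p below 0.0078 with 8 pairs. After adjustment over all genes, a gene could pass only if many others had p-values as small. The block thus had little power, and calls lost under it cannot decide whether the stage differences hold. Lists of peaks hold no depth, and weak peaks near a caller's threshold come and go with it.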
